A study of Macaca mulatta with 2 samples.

Results

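FOXP3+ DP T cells are the cells, among circulating T cells of a rhesus monkey sorted as CD4+CD8+ double-positive (DP), that carried the transcript of *FOXP3*, the transcription factor that defines regulatory T (Treg) cells. Cells were chosen by their own UMI counts: a cell entered the gate with at least 1 unique molecular identifier (UMI, a tag that lets each captured RNA molecule be counted once) of *FOXP3* and at least 1 UMI of *CD3D*, *CD3E* or *CD3G*, the invariant chains of the T cell receptor complex. The gate held 162 cells, 2.18% (95% interval 1.86 to 2.53) of the 7445 cells with CD3 UMIs among 7601 cells that passed the cell filter. The remaining 7283 cells with CD3 UMIs and no *FOXP3* UMI, called FOXP3-0 cells here, served as the comparison. By their antibody tags, 56 of the 162 cells (34.6%) were above the background of both CD4 and CD8. The gate was further divided by *CCR7*, a lymph node homing receptor, into 115 CCR7+ cells and 47 CCR7- cells.

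The cells came from the blood of 1 healthy, untreated rhesus monkey aged 6 years. CD4+ cells were first taken from blood mononuclear cells with releasable magnetic beads, and CD8+ cells were then taken from them with a second set of beads. A 5′ RNA library and a library of DNA-tagged antibodies to CD4 and CD8α were sequenced, and all 7923 deposited cell barcodes had counts in both. The cell filter kept 7601 of these barcodes, the same number of cells that the study analyzed. The labels give no genotype, and no second animal or comparison population was analysed here.

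Treg cells restrain the responses of other T cells. They carry a high-affinity interleukin-2 receptor, whose alpha chain is encoded by *IL2RA*, and the inhibitory receptor CTLA-4, and many express the Ikaros-family factor Helios, encoded by *IKZF2*. The alpha chain of the interleukin-7 receptor, *IL7R*, is typically low in them. Treg cells in blood include resting cells with lymph node homing receptors and effector cells that have lost them.

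With 1 animal there is no test of any difference, and the 95% intervals given here cover counting error only. Intervals are exact Poisson intervals for UMIs scaled to a fixed total (CPM), exact binomial (Clopper-Pearson) intervals for shares of cells, and exact intervals from the split of both counts for log2 folds. The gate held 805032 gene UMIs, with a median of 4158 UMIs per cell and a range of 2081 to 19490. FOXP3-0 cells held 29680978 UMIs, with a median of 3630. Because detection depends on depth, cells were also thinned at random to 2000 UMIs, which left out 434 shallower FOXP3-0 cells and no cell of the gate. This gave 91 FOXP3+ cells, or 1.31% of the thinned CD3+ cells.

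*FOXP3* itself lies on chromosome X of Mmul_10 from 49238223 to 49257249, on the minus strand. The gate held 266 *FOXP3* UMIs, or 330 CPM, and this level is what chose the cells. Just inside the threshold lay 106 cells with 1 *FOXP3* UMI, while 28 cells had 2 UMIs and 28 had 3 or more, up to 7. Just outside it lay the cells with none. One cell with *FOXP3* had no CD3 UMI and was left out. No *FOXP3* UMI was found in a background of 86 B gene cells, which lacked CD3 UMIs and had 3 or more from B cell genes (median depth 4137.5 UMIs), which allows a share of up to 3.49% by 3 counts and 4.20% by the exact interval. Among 1246 cells with UMIs of both *CX3CR1* and *GZMB*, which mark cytotoxic T cells, 2 cells (0.161%, interval 0.0194 to 0.579) had *FOXP3* at a median depth of 3420 UMIs. The share in the whole CD3+ population was above this level.

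The markers of the label that the gate did not use were higher in the FOXP3+ cells. *IL2RA* (chromosome 9, 7192508 to 7242421) had 87 UMIs in 47 of 162 cells. Its level was 108 CPM (86.6 to 133) in FOXP3+ cells and 8.93 CPM in FOXP3-0 cells, a log2 fold of 3.60 (3.23 to 3.95). *IKZF2* (chromosome 12, 100349657 to 100505208) had 42 UMIs in 34 cells, and its log2 fold was 3.03 (2.52 to 3.52), from 6.37 CPM to 52.2 CPM. *CTLA4* (chromosome 12, 91268255 to 91274677) had 69 UMIs in 43 cells, and its log2 fold was 2.16 (1.78 to 2.52), from 19.2 CPM to 85.7 CPM. These 3 genes were therefore higher by more than their counting error, and the data do not go against the Treg label. The *CTLA4* fold depended most on depth, with 0.49 on 5 UMIs when both gate and levels were redrawn at 2000 UMIs, and 1.64 when the levels of all 162 cells were taken at that depth.

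Across 3136 genes with at least 30 UMIs observed or expected in the gate, *FOXP3* left out, 42 (1.34%) were at least 2-fold higher in FOXP3+ cells and 80 (2.55%) at least 2-fold lower, on the scale of CPM + 10. The median log2 fold of all of them was -0.05. Of the Treg identity list, 27 of 30 genes were in the files and 24 had a UMI in the gate. Among its 8 genes past the minimum, *FOXP3* left out, 4 were at least 2-fold higher and none lower, with a median of 1.32. The fourth beside *IL2RA*, *IKZF2* and *CTLA4* was *RTKN2* (chromosome 9, 75702092 to 75784293), a gene expressed in human Treg cells, with 57 UMIs in 38 cells and a log2 fold of 3.0 (2.56 to 3.42). The transcription factor *BATF*, which takes part in effector Treg differentiation, had a log2 fold of 1.12 (0.60 to 1.60), and the inhibitory receptor *TIGIT* one of 1.03 (0.74 to 1.31). Below the minimum of UMIs, the phosphatase gene *DUSP4* had 25 UMIs and a log2 fold of 1.74 (1.09 to 2.33). The tumor necrosis factor receptor genes *TNFRSF1B* and *TNFRSF18*, often high in Treg cells, had log2 folds of -0.03 (-0.28 to 0.20) and -0.31 (-0.99 to 0.29), so neither was separated from the FOXP3-0 cells as a whole.

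Genes that are typically low in Treg cells were mostly lower. Of the 8 such genes past the minimum, 6 were at least 2-fold lower and none higher, with a median of -1.30. *IL7R* had 462 CPM in FOXP3+ cells and 1166 CPM in FOXP3-0 cells, a log2 fold of -1.33 (-1.49 to -1.19). *BHLHE40*, a regulator of cytokine production, had a log2 fold of -2.76 (-3.52 to -2.10), *ID2*, an inhibitor of E proteins, one of -1.64 (-1.94 to -1.36), and *CD40LG*, the ligand with which helper T cells activate B cells, one of -1.73 (-2.64 to -0.95). No UMI of the effector cytokine genes *IFNG* and *TNF* was found in the gate, which is at least 2.03-fold and 1.79-fold lower than in FOXP3-0 cells by a floor of 3 counts over the gate.

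**Figure D1:**
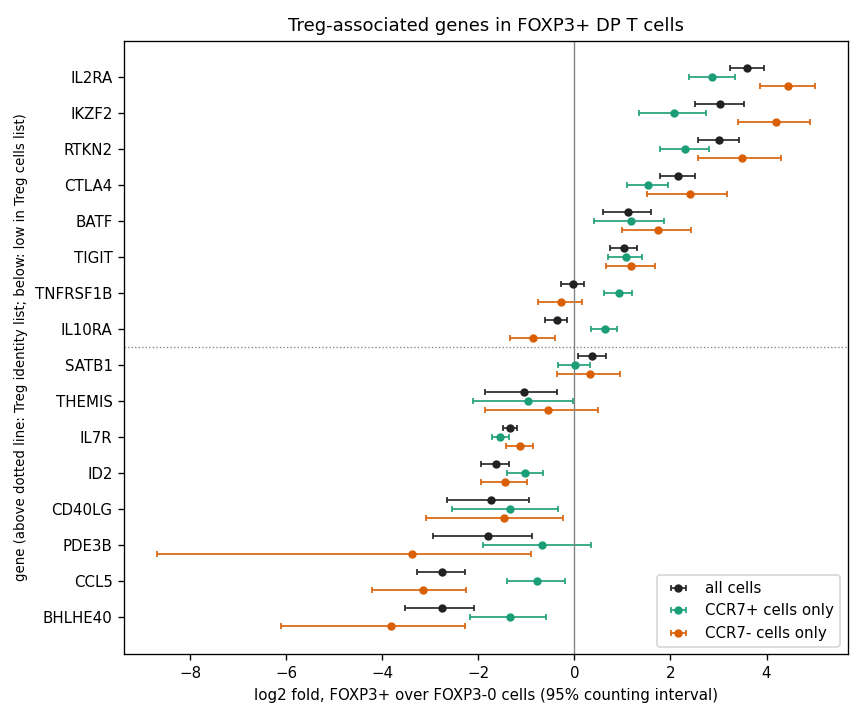
Log2 fold of FOXP3+ over FOXP3-0 cells for genes of the Treg identity list and of the list of genes low in Treg cells that had enough UMIs, for all cells (black), CCR7+ cells alone (green) and CCR7- cells alone (orange). Points are folds of summed UMIs and bars are 95% counting intervals. *IL2RA*, *IKZF2*, *RTKN2* and *CTLA4* lie to the right of 0 in all 3 comparisons, and *IL7R* lies to the left.

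The 4 genes of the Treg identity list that were at least 2-fold higher in the gate were also counted per cell. They were picked for being higher there, so higher shares in the gate follow in part from that choice. At least 1 of *IL2RA*, *IKZF2*, *CTLA4* and *RTKN2* was detected in 60.5% of FOXP3+ cells (52.5 to 68.1) and in 13.2% of FOXP3-0 cells (12.4 to 14.0). At least 2 of them were detected in 46 FOXP3+ cells (28.4%, 21.6 to 36.0) and in 118 FOXP3-0 cells (1.62%, 1.34 to 1.94). Among the 2296 FOXP3-0 cells with no UMI of *GZMB*, *PRF1*, *NKG7*, *GNLY* or *CCL5*, 23.9% had at least 1 and 3.6% at least 2. At 2000 UMIs per cell, the shares with at least 2 were 11.7% of FOXP3+ cells and 0.394% of FOXP3-0 cells as a whole. For the Treg markers, no difference was seen between cells with a single *FOXP3* UMI and those with more. At least 1 of the 4 genes was found in 61.3% (51.4 to 70.6) of the 106 cells with 1 *FOXP3* UMI and in 58.9% (44.98 to 71.9) of the 56 cells with 2 or more. *IL2RA* had 94.4 CPM in the former and 133 CPM in the latter, a log2 fold of 0.49 (-0.16 to 1.13), *IKZF2* one of 0.01 (-1.004 to 0.97) and *CTLA4* one of -0.43 (-1.26 to 0.34). Each of these intervals includes 0. A single cell held 16 of the *IL2RA* UMIs in the cells with 2 or more. Without the 5% deepest cells and cells with B marker UMIs, the *IL2RA* fold was -0.46. Other genes did differ beyond counting error, with log2 folds of 1.45 (0.19 to 2.76) for *DUSP4*, 0.64 (0.13 to 1.15) for *CTSH*, 1.56 (1.06 to 2.07) for the cell cycle gene *STMN1* and -0.51 (-0.85 to -0.17) for *IL7R*, named after their values were seen. Of the *STMN1* UMIs in the cells with 2 or more *FOXP3* UMIs, 62 were in 1 cell, which had 7 *FOXP3* UMIs.

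The gate was poor in cytotoxic genes. All 11 cytotoxic genes past the minimum were at least 2-fold lower, with a median log2 fold of -2.39. *GZMB*, a protease of cytotoxic granules, had 206 CPM against 1266 CPM (log2 fold -2.62, -2.85 to -2.40), and its 166 UMIs came from 18 cells. *NKG7*, a granule membrane protein, had a log2 fold of -2.83 (-3.13 to -2.54), and the chemokine *CCL5* one of -2.76 (-3.28 to -2.28). No UMI was found of *EOMES*, a transcription factor of cytotoxic and type 1 regulatory T cells (at least 4.57-fold lower). In 74.7% of FOXP3+ cells, but in 31.5% of FOXP3-0 cells, there was no UMI of *GZMB*, *PRF1*, *NKG7*, *GNLY* or *CCL5*.

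Since the comparison cells hold so many cytotoxic cells, the folds were also taken against the 2296 FOXP3-0 cells without a UMI of those 5 genes. The log2 fold was 2.76 (2.37 to 3.15) for *IL2RA*, 2.60 (2.03 to 3.15) for *IKZF2*, 1.87 (1.42 to 2.30) for *RTKN2* and 1.39 (0.99 to 1.77) for *CTLA4* there, all smaller than before, and -1.58 (-1.73 to -1.43) for *IL7R*. This filter left the gate as it was, with its 41 cells that had UMIs of those genes, so the groups were not chosen alike and no fold of a gene of cytotoxic cells is read from it. A comparison with the filter on both sides, 121 FOXP3+ against 2296 FOXP3-0 cells, was added with the data already seen, and these are called the non-cytotoxic cells here. It gave log2 folds of 2.997 (2.57 to 3.41) for *IL2RA*, 2.73 (2.08 to 3.34) for *IKZF2*, 2.22 (1.74 to 2.68) for *RTKN2*, 1.55 (1.10 to 1.97) for *CTLA4* and 1.42 (1.04 to 1.78) for *TIGIT*, and *IL7R* was at -1.92 (-2.13 to -1.72). Among the genes typically low in Treg cells, *BHLHE40* was at -2.94 (-4.82 to -1.57) and *ID2* at -1.10 (-1.55 to -0.69). *TNFRSF1B* was at 1.32 (0.99 to 1.64), in place of -0.03 over all cells. The exhaustion receptor *PDCD1* went from -1.60 (-2.13 to -1.12) over all cells to -0.40 (-1.22 to 0.32), and *S100A4*, a calcium-binding protein of memory cells, from -1.33 (-1.42 to -1.24) to -0.83 (-0.996 to -0.67).

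The other parts of the regulatory program were mixed. Of the suppressive effector genes past the minimum, 1 of 7 was higher (*CTLA4*) and 3 were lower (*TGFB1*, *PDCD1* and *PRF1*). *TGFB1*, which encodes the suppressive cytokine TGF-β1, had a log2 fold of -1.08 (-1.41 to -0.76), with 101 CPM against 212 CPM. Among 9 genes of interleukin-2 and STAT5 signalling, *IL2RA* was higher and *IL7R* lower by at least 2-fold, while the beta chain *IL2RB* had a log2 fold of 0.56 (0.28 to 0.82), or 2.31 (1.93 to 2.67) between the non-cytotoxic cells, and the common gamma chain *IL2RG* one of -0.25 (-0.42 to -0.09). None of the 13 partners and regulators of FOXP3 past the minimum was 2-fold higher, and *RUNX3* and *NFATC2* were 2-fold lower, though *RUNX3* had a log2 fold of -0.05 (-1.02 to 0.79) between the non-cytotoxic cells. *FOXP1*, a related forkhead factor, had a log2 fold of 1.04 (0.77 to 1.29). Antigen presentation genes were lower in 3 of 4 cases, among them *MAMU-DRA*, a class II MHC chain, at -2.69 (-3.37 to -2.09). The genes of this family are close copies of each other, so their counts are uncertain. *CD74*, another of the 3, went from -1.26 to -0.20 without the 5% deepest cells and cells with B marker UMIs. In all, 1 FOXP3+ cell and 130 FOXP3-0 cells had 3 or more B marker UMIs. They were left out only together with the 5% deepest cells, so their own part in these folds was not tested.

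Genes outside the Treg lists also ranked among the 15 largest folds. *CA6*, a secreted carbonic anhydrase, was detected in 53 cells and had a log2 fold of 2.32 (1.96 to 2.66). *CTSH*, a lysosomal protease, in 70 cells at a log2 fold of 1.92 (1.65 to 2.17), and *IL6ST*, the shared signalling chain of the interleukin-6 receptor family, in 76 cells with 1.55 (1.26 to 1.83). *OXCT1*, an enzyme of ketone body use, had a log2 fold of 2.09 (1.71 to 2.44), though 16 of its 72 UMIs were in 1 cell. Between the non-cytotoxic cells, the log2 folds were 1.25 for *CA6*, 1.15 for *CTSH*, 0.72 for *IL6ST* and 2.65 for *OXCT1*. Other large folds rested on few cells. *CGA*, the alpha chain of glycoprotein hormones, had 85 UMIs in 8 cells, and 262 of 264 UMIs of the histone gene *H3C13* were in a single cell. That cell had 19490 gene UMIs, with 7 of *FOXP3*, 16 of *IL2RA*, 19 of the proliferation marker *MKI67*, 34 of *RRM2* and none of *CCR7*. At the other end, the hemoglobin gene *HBA* had 10 UMIs in 6 FOXP3+ cells (3.70%) and was found in 12.1% of FOXP3-0 cells. No *HBB* UMI was found in the gate, and in the FOXP3-0 cells 2651 of 2661 *HBB* UMIs came from 3 cells, so no difference can be read from it. Of the B cell markers, 3 of 9 had a UMI in the gate (*CD79A* the most abundant, *MS4A1* at 0), with a sum of 41.0 CPM against 114 CPM, while *CD79A* was detected in 10.5% of FOXP3+ and 6.10% of FOXP3-0 cells. Monocyte markers summed to 13.7 CPM against 13.4 CPM. No cell was removed as a doublet (a droplet with more than 1 cell).

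Cells with *MKI67* or *TOP2A* UMIs made up 6.17% of the gate (3.0 to 11.1) and 4.02% of FOXP3-0 cells (3.58 to 4.50), and the intervals overlap. These 10 FOXP3+ cells had a median of 8283 UMIs, against 4578 in such FOXP3-0 cells. Without them, the *IL2RA* fold of the gate was 3.07 on the log2 scale. No single receptor segment dominated the gate by cell number. The most frequent named alpha segment, *TRAV13-1*, was seen in 14 cells (8.64%, 4.80 to 14.1), against 3.36% of FOXP3-0 cells.

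*FOXP3* was next compared across gates drawn by markers of other DP T cell types, which may overlap. Its level was 8.73 CPM in all CD3+ cells. In cells with *SOX4*, a transcription factor of recent thymic emigrants, it was 37.9 CPM (24.96 to 55.1), with 14 of 161 cells positive. In cells with the skin homing receptor *CCR4* it was 28.7 CPM (19.1 to 41.5), with 11 of 180 cells positive, but 1 of 172 after thinning. Cells with the mucosal receptor *CCR6* had 10.7 CPM (7.42 to 14.98), an interval that includes the level of all cells. Lower levels were found in cells with the gut homing receptor *CCR9* (3.38 CPM, 1.54 to 6.41) and with the Th1 receptor *CXCR3* (4.17 CPM, 2.61 to 6.32), the latter at 8.50 CPM when thinned to 2000 UMIs. The lowest were in cells with *CX3CR1* and *GZMB* (0.398 CPM, 0.0482 to 1.44) and in cells with *EOMES* and *GZMK*, where 0 of 294 cells had *FOXP3*, which allows a share of up to 1.02% by 3 counts and 1.25% by the exact interval. Cells with *MKI67* had 18.7 CPM and cells with the follicular receptor *CXCR5* 15.4 CPM. Without the deepest 5% of cells and cells with B marker UMIs, the level was 12.3 CPM in *CCR4* and 10.1 CPM in *MKI67* cells. Without cells that had *MKI67* or *TOP2A* UMIs, it was 15.9 CPM in *CCR4* and 9.68 CPM in *CXCR5* cells. With the marker gates redrawn on thinned counts, it was 0 in all 3. With those gates kept on all UMIs, thinned counts had *FOXP3* in 6 of 312 *CXCR5* cells (1.92%) and 4 of 201 *MKI67* cells (1.99%). The share was 0.58% of *CCR4* cells and 1.31% of all CD3+ cells.

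**Figure D2:**
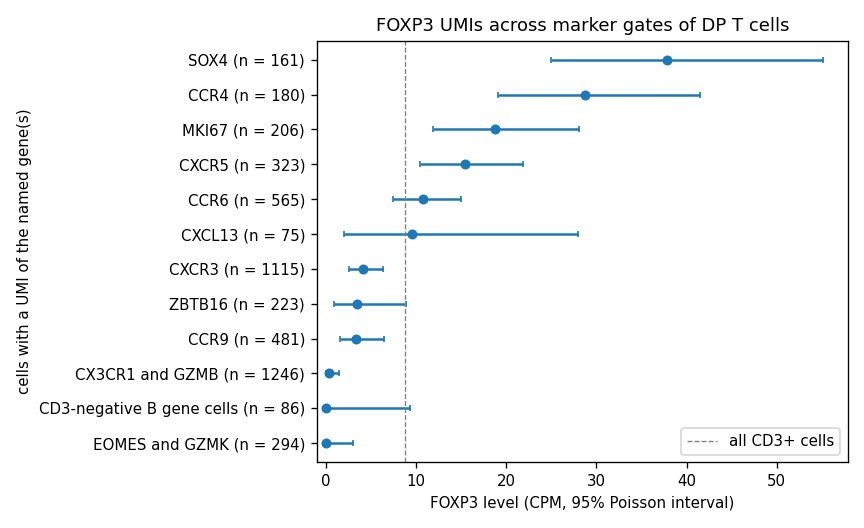
*FOXP3* level in CPM in cells with a UMI of the named gene or genes, with the number of cells and 95% Poisson intervals, and the level of all CD3+ cells as a dashed line. The intervals of the SOX4, CCR4, MKI67 and CXCR5 gates lie above the line, and those of the CXCR3, CCR9, CX3CR1 and GZMB, and EOMES and GZMK gates lie below it.

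The surface tags of the FOXP3+ cells differed from those of the rest mainly in CD8. The median CD4 tag was 324.5 UMIs per cell (quartiles 266 and 424) in FOXP3+ cells and 386 in FOXP3-0 cells. The median CD8 tag was 195 (quartiles 106 and 481) and 341. Background was set at the level that 90% of those 86 B gene cells did not exceed, which was 191 UMIs per cell for the CD4 tag and 330.5 for the CD8 tag. Over this level lay 95.1% of FOXP3+ cells for CD4 (90.5 to 97.8) and 93.2% of FOXP3-0 cells, but for CD8 37.0% (29.6 to 44.97) and 51.6% (50.4 to 52.7). Both tags were above background in 56 FOXP3+ cells (34.6%, 27.3 to 42.4) and in 49.0% of FOXP3-0 cells. In the gate, 102 of 162 cells thus had a CD8 tag no higher than the background. Of the transcripts, *CD8A* had 164 CPM in FOXP3+ and 174 CPM in FOXP3-0 cells (log2 fold -0.08, -0.34 to 0.17). The *CD8A* fold was -0.77 when thinned to 2000 UMIs and -0.49 without the 5% deepest cells and cells with B marker UMIs. *CD8B* was higher with 42.2 and 16.0 CPM (1.40, 0.85 to 1.90), unlike the CD8 tag. *CD4* was lower (-0.55, -0.86 to -0.26), as was the median CD4 tag. When all CD3+ cells were split into quartiles by CD8 tag, *FOXP3* was found in 4.32% of the lowest quartile (3.45 to 5.34) and in 1.24%, 1.40% and 1.72% of the others in rising order. The corresponding levels were 20.7, 6.12, 5.33 and 5.26 CPM.

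**Figure D3:**
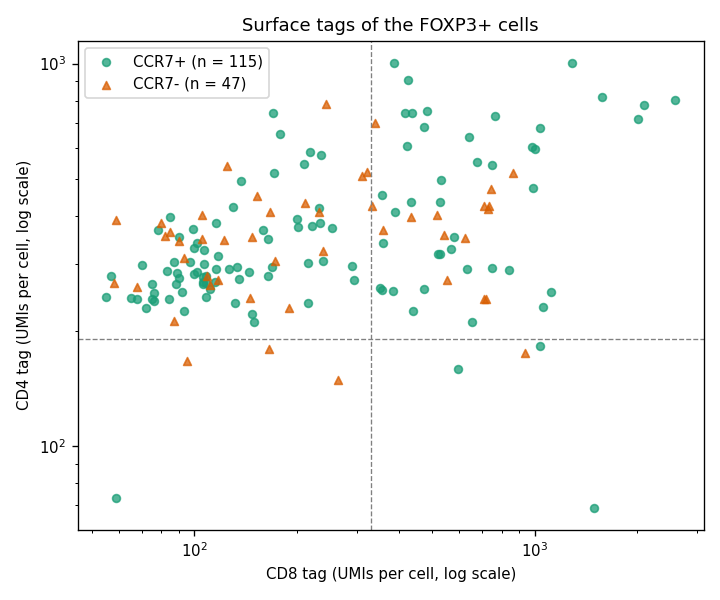
CD4 tag against CD8 tag in UMIs per cell, both on log axes, for each FOXP3+ cell, with CCR7+ cells as green circles and CCR7- cells as orange triangles. Dashed lines mark the background of 191 UMIs for CD4 and 330.5 UMIs for CD8, and 60 cells lie to the right of the CD8 line.

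The FOXP3+ cells on either side of the CD8 background were then compared, a split that was chosen after these values had been seen. The 60 cells above it had a median of 5207.5 UMIs and the 102 cells at or below it 3884.5, and the part that depth plays in the differences was not tested. Of 1530 genes, 66 (4.31%) were at least 2-fold higher in the cells above and 8 (0.523%) at least 2-fold lower. *CD8A*, the transcript of the tagged protein, had 317 CPM above and 30.2 CPM below, a log2 fold of 3.39 (2.56 to 4.34). *FOXP3*, which chose the cells, had 248 CPM above and 402 CPM below, a log2 fold of -0.70 (-1.08 to -0.33). The intervals of 4 other Treg markers included 0, with log2 folds of -0.24 (-0.89 to 0.40) for *IL2RA*, -0.80 (-1.84 to 0.17) for *IKZF2*, -0.18 (-0.92 to 0.54) for *CTLA4* and 0.04 (-0.76 to 0.84) for *RTKN2*. At least 1 of the 4 marker genes was detected in 66.7% (53.3 to 78.3) of the cells above and 56.9% (46.7 to 66.6) of those below.

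Several memory genes were higher in the cells above the background. *S100A4* had 1980.1 CPM in the cells above and 484 CPM in the cells below, a log2 fold of 2.03 (1.81 to 2.26), and *VIM*, an intermediate filament, had one of 1.34 (1.12 to 1.57). Of 15 effector and memory genes, 7 were at least 2-fold higher and none lower. All 4 cytotoxic genes past the minimum were also at least 2-fold higher, with log2 folds of 1.85 for *GZMB*, 1.59 for *GNLY*, 1.52 for *CST7* and 1.11 for *NKG7*, as was *KLRB1*, the receptor CD161. In the cells above, *GZMB* was found in 10 cells and *KLRB1* in 9, and the part of these genes' cells in the memory gene differences was not tested. Of 8 homing receptor genes, 1 was at least 2-fold higher, the integrin gene *ITGAL*, with a median of 0.33 beside 0.18 for all genes. Below the minimum of UMIs, *CCR4* had 22 UMIs in 11 FOXP3+ cells. Of these UMIs, 21 were in cells above the background, a log2 fold of 4.59 (1.95 to 9.96). All 18 *CCR9* UMIs were in such cells, at least 6.87-fold higher by the floor of 3 counts, but 10 of them were in 1 cell. The same split of FOXP3-0 cells gave log2 folds of -0.15 for *S100A4*, -0.50 for *CCR4*, 0.30 for *CCR9* and 2.09 for *CD8A*. The difference between these 2 sets of folds was not tested.

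**Figure D4:**
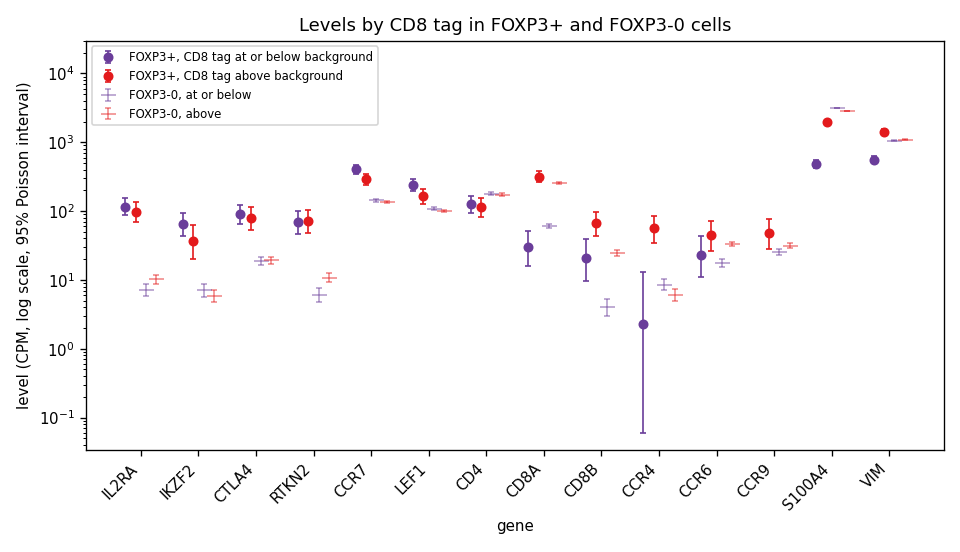
Levels in CPM on a log axis, with 95% Poisson intervals, in FOXP3+ cells with a CD8 tag at or below background (purple points) or above it (red points), and in FOXP3-0 cells split in the same way (pale crosses). The intervals of the 4 Treg genes at the left overlap between the FOXP3+ groups, while *CD8A*, *CCR4*, *S100A4* and *VIM* lie higher in the group above; *CCR9* had no UMI in the group below and is not drawn there.

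Most of the FOXP3+ cells carried *CCR7*. Its share was 71.0% of the gate (63.4 to 77.8) and 28.5% of FOXP3-0 cells (27.5 to 29.6), and after thinning 48.4% and 18.5%. Among other genes of resting and naive cells, the log2 fold was 0.97 (0.74 to 1.20) for the transcription factor *LEF1* and 1.02 (0.69 to 1.34) for the costimulatory receptor *CD28*. The *CD28* fold was 0.015 with the gate redrawn at 2000 UMIs and 0.68 with levels alone thinned. Of 14 such genes reported here and past the minimum, 1 (*CCR7*) was at least 2-fold higher and none lower, with a median of 0.55. *TCF7*, another factor of naive cells, was lower at -0.55 (-1.003 to -0.13). Within CCR7+ cells the difference was smaller, at 0.29 (0.03 to 0.54) for *LEF1*. Between the non-cytotoxic cells the log2 folds were 0.59 for *CCR7*, 0.52 for *CD28*, 0.17 (-0.10 to 0.43) for *LEF1* and -1.03 for *TCF7*.

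The Treg markers were higher in both CCR7 classes when each was compared with FOXP3-0 cells of the same class. Within CCR7+ cells the log2 fold was 2.87 (2.38 to 3.35) for *IL2RA*, 2.06 (1.34 to 2.73) for *IKZF2*, 2.31 (1.78 to 2.80) for *RTKN2* and 1.53 (1.09 to 1.94) for *CTLA4*, the last with the opposite sign (-0.76) when the gate was redrawn at 2000 UMIs. Within CCR7- cells, where the comparison holds most of the cytotoxic cells, it was 4.46 (3.87 to 5.01), 4.19 (3.40 to 4.92), 3.50 (2.58 to 4.31) and 2.40 (1.51 to 3.17). The cell with 19490 UMIs held 16 of the *IL2RA* UMIs of the CCR7- cells, and without cells that had *MKI67* or *TOP2A* UMIs the *IL2RA* value was 3.34. Within CCR7+ cells *IL2RB* and *TNFRSF1B* were also higher, with log2 folds of 1.46 (1.12 to 1.80) and 0.92 (0.62 to 1.21).

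Inside the gate, few genes separated CCR7- from CCR7+ cells by 2-fold. The CCR7- cells had a median of 3737 UMIs and the CCR7+ cells 4380. In 39 of the 115 CCR7+ cells there was a single *CCR7* UMI, and CCR7- means only that none was found. The part of missed *CCR7* transcripts in this comparison was not tested. Of 861 genes, 32 (3.72%) were at least 2-fold higher in CCR7- cells and 1 (0.116%) at least 2-fold lower, *CCR7* left out, with a median log2 fold of 0.20. Of 15 effector and memory genes, 1 (*S100A4*) was at least 2-fold higher and none lower, with a median of 0.43. Of 4 cytotoxic genes, 3 were at least 2-fold higher, namely *NKG7* (log2 fold 1.33), *CST7* (1.29) and *GNLY* (1.16), the last from 4 CCR7- cells. *CST7* had the opposite sign (-1.28) in a gate of 2 *FOXP3* UMIs, and the part of cytotoxic cells in the other differences was not tested. *S100A4* had 2115 CPM in CCR7- cells and 840.0 CPM in CCR7+ cells, a log2 fold of 1.33 (1.15 to 1.52), though 0.086 when gate and split were redrawn at 2000 UMIs and 0.37 in a gate of 2 *FOXP3* UMIs, and *VIM* had one of 0.93 (0.72 to 1.14). *IKZF2* had 88.1 CPM and 39.0 CPM, a log2 fold of 1.18 (0.22 to 2.12), and *GATA3*, a factor of Th2 and of some Treg cells, one of 1.11 (0.16 to 2.04). *LEF1* was lower, with 116 CPM and 236 CPM (log2 fold -1.02, -1.70 to -0.40). The interval included 0 for *CTLA4* (-0.52, -1.48 to 0.34), *TIGIT* (0.31, -0.32 to 0.91) and *CCR4* (-0.31, -2.11 to 1.18). All 7 UMIs of *IL10*, a suppressive cytokine, were in 3 CCR7- cells, at least 6.38-fold higher than in CCR7+ cells by the floor of 3 counts.

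Several of the largest folds shrank when cycling cells were left out, among them the cell with 19490 UMIs described above. In all, 3 of the cycling FOXP3+ cells had no *CCR7* UMI, and the part of that 1 cell alone was not tested. Without the 10 cells with *MKI67* or *TOP2A* UMIs, 13 genes in place of 33 were past 2-fold. The log2 fold of *IL2RA* went from 0.81 (0.14 to 1.46) to -0.02 (-1.04 to 0.91) and that of the histone gene *H4C3* from 3.95 to 0.38. *S100A4* (1.46), *VIM* (0.70), *IKZF2* (1.14) and *LEF1* (-1.17) kept both their direction and an interval without 0.

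**Figure D5:**
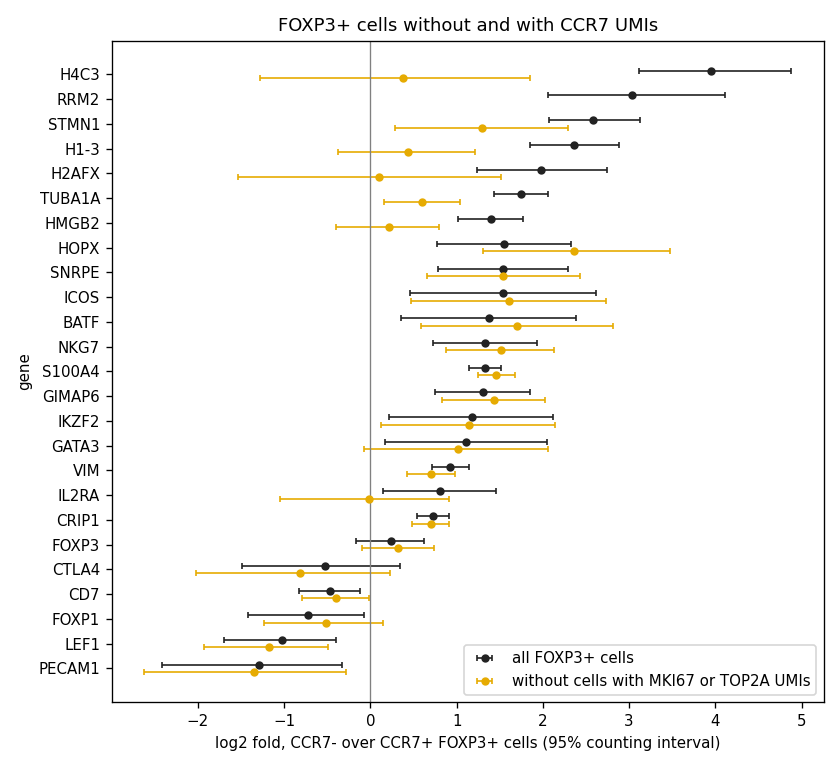
Log2 fold of CCR7- over CCR7+ FOXP3+ cells with 95% counting intervals, for all cells (black) and without the 10 cells that had *MKI67* or *TOP2A* UMIs (yellow). Histone and cell cycle genes at the top move toward 0 without those cells, while *S100A4*, *IKZF2*, *VIM* and *LEF1* stay apart from 0.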

How the data were processed

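Circulating DP T cells of 1 rhesus monkey were measured with an RNA library and a CD4 and CD8 tag library. The authors deposited UMI counts for each gene and tag in every barcode, not normalized. The submitters' processing notes name Cell Ranger 3.1.0, STAR 2.5.1b, Seurat 3.1.3 and the Mmul_10 genome, and no annotation release was found in them. Of 35432 genes, 23817 had a symbol in the deposited counts and 720 more took one from a gene name table. A symbol on several features named none of them. Coordinates are those of RefSeq for Mmul_10.

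Cells were kept if they had 200 to 4000 genes and a mitochondrial share of UMIs of 20% or less. The mitochondrial genes were 13 named ones and 2 features without a symbol. Counts were summed over the cells of a group and scaled to CPM. Folds were ratios of CPM, and a 2-fold limit on CPM + 10 was applied to genes with at least 30 UMIs observed in the first group or expected there at the level of the second. A count of 0 was replaced by 3 counts for a bound. With 1 animal, no test was made. No doublet caller was used. Non-cytotoxic cells, a filter set first on the FOXP3-0 cells and later on both groups, had no UMI of 5 genes, and *GZMH*, also named in the design, matched no feature used here.

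The members, gene lists and the rule for named genes were chosen with earlier results of these data known. The rule names every gene of 25 lists (248 of 269 genes reported here were in the files) and the 15 largest folds in each direction, with mitochondrial, ribosomal and receptor segment genes as groups. Results for some genes, including 1 fold fixed in the design, are not reported here, and lists are counted without them. Alternatives were another mitochondrial limit, a gate of 2 *FOXP3* UMIs, thinning, other comparison cells, means over cells, other pseudocounts and minimums, and leaving out the deepest cells. Computation used Python 3.11.15, numpy 2.4.6, scipy 1.17.1, pandas 2.3.3 and matplotlib 3.10.9 and was tested on simulated data.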

Additional observations from a re-analysis of the deposited data

Results flagged for a closer look

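*FOXP3* UMIs were also found in 4 of the 322 barcodes that the cell filter left out (1.24%, 0.340 to 3.15), outside the data used for any comparison. They held 11 *FOXP3* UMIs, 8 of them in 1 barcode. Of these barcodes, 1 exceeded the limit of 4000 genes and 3 exceeded the mitochondrial limit.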

How the results depend on the processing

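No paired analysis was possible because the data are 1 RNA library of 1 animal, so there was no replicate to leave out. The folds of *IL2RA*, *IKZF2* and *IL7R* between FOXP3+ and FOXP3-0 cells kept their direction under every alternative tried, and the *CTLA4* fold did so over all cells. Without the 2 unnamed mitochondrial features, those of the 34 results fixed in the design that have a counting interval all lay within it. The numbers of genes past 2-fold have no such interval. Leaving out cells with *MKI67* or *TOP2A* UMIs, taking levels alone from thinned counts, the filter on both sides, and the CD8 tag split at its median were added with the data already seen. The cause of a change was not tested.

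Thinning to 2000 UMIs with the gate redrawn, without the shallower cells, gave 1.31% FOXP3+ cells, 48.4% of them CCR7+, with 50 and 4 genes past 2-fold in the gate and CCR7 comparisons. The log2 folds over FOXP3-0 cells were then 0.49 for *CTLA4* (1.07 within CCR7- cells and reversed at -0.76 within CCR7+ cells), 2.13 for *IL2RA* within CCR7+ cells, -1.62 for *IL7R* and -0.13 for *H2AFX* (reversed). Those of CCR7- over CCR7+ cells were 0.49 for *CTLA4* and 0.086 for *S100A4*, and reversed for *CALM3* (-0.44), *GPX1* (-1.42), *H1-3* (-0.55), *H2AFX* (-0.51) and *H4C3* (-1.10). *FOXP3* was at 8.50 CPM in CXCR3 cells and 0 CPM in CCR4, CXCR5, MKI67, ZBTB16 and CX3CR1 and GZMB cells. With levels alone thinned, the folds were 4.03 for *IL2RA*, 3.62 for *IKZF2* (4.96 within CCR7- cells) and 1.64 for *CTLA4* (0.83 within CCR7+ cells), and *GPX1* reversed between CCR7- and CCR7+ cells (-0.71).

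A gate of 2 *FOXP3* UMIs held 0.752% of CD3+ cells, with 77 genes past 2-fold, folds of -1.68 for *IL7R* and 5.16 for *IL2RA* within CCR7- cells, and CCR7- over CCR7+ folds of 1.52 for *IL2RA*, 0.37 for *S100A4* and -1.28 for *CST7* (reversed). With the filter on cytotoxic UMIs applied to FOXP3-0 cells alone, 68 genes were past 2-fold, the folds were 2.76 for *IL2RA*, 1.39 for *CTLA4* and -1.58 for *IL7R*, and reversals were seen for *CST7* (1.71), *CX3CR1* (2.03), *GZMK* (2.40), *HOPX* (0.39), *KLRB1* (0.79), *KLRD1* (2.74), *KLRF1* (3.62), *PDCD1* (0.16), *RUNX3* (0.50) and *S100A4* (0.13). The gate kept its 41 cells with such UMIs, so the groups were not chosen alike. With the filter on both sides, 62 genes were past 2-fold, the folds were 2.997 for *IL2RA*, 1.55 for *CTLA4* and -1.92 for *IL7R*, and *ACTN1* reversed (-0.0086). Smaller folds also changed sign, among them *GPR183* (from 0.43 to -0.22), *ANXA2* (from -0.28 to 0.40) and *ICOS* (from 0.58 to -0.04).

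Without *MKI67* or *TOP2A* cells, the *IL2RA* fold was 3.07 (3.34 within CCR7- cells, and -0.018 between CCR7- and CCR7+ cells), 13 genes were past 2-fold between CCR7- and CCR7+ cells, *FOXP3* was at 15.9 CPM in CCR4 and 9.68 CPM in CXCR5 cells, and *H2AFX* (-0.155) and, between CCR7- and CCR7+ cells, *GPX1* (-2.44) reversed. Without the 5% deepest cells and cells with B marker UMIs, *IL2RA* was at 3.57 within CCR7- cells, -0.15 between CCR7- and CCR7+ cells and -0.46 between cells with 2 or more and 1 *FOXP3* UMIs, 13 genes were past 2-fold between CCR7- and CCR7+ cells, *FOXP3* was at 12.3 CPM in CCR4 and 10.1 CPM in MKI67 cells, and *H2AFX* (-0.32), *MKI67* (-0.21) and, between CCR7- and CCR7+ cells, *GPX1* (-0.70) reversed. Means over cells gave 3.62 for *IL2RA* within CCR7- cells, 0.13 between CCR7- and CCR7+ cells and a reversed -0.049 for *GPX1*. Leaving mitochondrial and ribosomal genes out of the totals gave *FOXP3* levels of 43.6, 16.6, 24.0 and 62.3 CPM in CCR4, CCR6, CXCR5 and SOX4 cells. A mitochondrial limit of 10% gave 1.13 for *S100A4* between CCR7- and CCR7+ cells. For the gate and the CCR7 comparison, the number of genes past 2-fold was 204 and 184 with a minimum of 10 UMIs, 209 and 717 with none, and 44 and 17 with a pseudocount of 50.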

Other observations

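Other gene lists were counted in the same way between FOXP3+ and FOXP3-0 cells, where 1.34% of all genes were at least 2-fold higher and 2.55% lower. Of 11 homing receptor genes past the minimum, none was higher and *CX3CR1*, the fractalkine receptor, was lower (*CX3CR1* had 2 UMIs in the gate, log2 fold -4.73, -7.78 to -2.87). Of 10 costimulation and checkpoint genes, *CTLA4* was higher and *PDCD1* and *CD96* were lower. *ICOS*, a costimulatory receptor, had a log2 fold of 0.58 (0.03 to 1.08). That fold was -0.04 between the non-cytotoxic cells, 0.03 in a gate of 2 *FOXP3* UMIs and 0.07 when thinned to 2000 UMIs. Of 3 TGF-beta signalling genes, 1 was lower, *TGFB1*. Of 22 effector and memory genes, none was higher and 5 were lower, among them *ANXA1* at -1.76 (-2.02 to -1.52). With both groups limited to cells without cytotoxic UMIs, the log2 folds were -2.24 for *ANXA1*, -1.18 for *AHNAK*, -1.13 for *CD74* and -0.83 for *S100A4*, while the fifth, *PRF1*, chose those cells. *CD74* was no longer past 2-fold, at -0.20, without the 5% deepest cells and cells with B marker UMIs. All 3 innate-like genes past the minimum were lower, with *KLRB1*, the receptor CD161, at -1.45 (-1.91 to -1.04). No *KLRB1* UMI was found in the 121 FOXP3+ cells without cytotoxic UMIs.

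The helper lists held few genes past the minimum. Of 3 Th1 genes, *STAT4* was lower at -1.49 (-2.20 to -0.86). None of 2 Th2 genes, of 1 Th17 gene or of 1 CCR9 helper gene was past 2-fold, and of 3 Tfh genes only *PDCD1* was lower. *KLRF1*, the only NK cell marker past the minimum, had 9 UMIs in the gate. NK markers summed to 12.4 CPM in FOXP3+ and 73.7 CPM in FOXP3-0 cells, platelet markers to 3.73 and 1.18 CPM, red blood cell markers to 12.4 and 245 CPM (2651 of the 2661 *HBB* UMIs in 3 cells and 65 of the 66 *ALAS2* UMIs in 1), and plasmacytoid dendritic cell markers, of which only *GZMB* had UMIs in the gate, to 206 and 1272 CPM. Their part in the folds was not tested. Cycling genes summed to 344 CPM in FOXP3+ and 183 CPM in FOXP3-0 cells, and *STMN1* was the most abundant. Of the 277 UMIs of these genes in the gate, the cell with 19490 gene UMIs alone held 62 of *STMN1* and 19 of *MKI67*. No difference in cycling is therefore read from the sums.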
